A study of Cucumis melo with 8 samples.

Results

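The miR171 family was represented by 4 distinct mature sequences in the small RNA libraries of Hami melon mesocarp, out of 71 distinct sequences in the processed table. They were taken as the entries whose name begins with miR171. These were 8 of 116 names, and names with the same sequence carry the same value, so each sequence was counted once. The libraries were made from fruit flesh collected 10, 20, 30 and 40 days after flowering (DAF) from the variety ‘Flavor No. 4’. These are the ages that the study calls young, expanding, premature and mature fruit. Each stage had 1 library in each of 2 batches, read here from the suffix of the library titles. Each second-batch library came from 1 fruit and was read on the Illumina NextSeq, and each first-batch library pooled RNA of 3 fruits and was read on the Illumina GAIIx. The batches were collected in different years, so year, sequencer and number of fruits cannot be told apart. No treatment or genotype separated the samples. A table of miRNAs holds no marker gene of mesocarp, so the labelled tissue could not be checked. In such bulk tissue, fewer cells that make a miRNA and less of it per cell cannot be told apart.

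miR171 is an ancient family of land plants. Its members guide the cleavage of mRNAs for GRAS transcription factors of the SCARECROW-LIKE group, which are also named HAIRY MERISTEM. In Arabidopsis these factors keep cells of the shoot meristem undifferentiated, and plants that make too much miR171 branch less.

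The mature sequences are given in the letters of the processed table, with T for U, because they show how little separates the members. Capitals mark the seed, bases 2 to 8 from the 5′ end.
miR171c/f: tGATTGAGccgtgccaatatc
miR171b/d: tTGAGCCGtgccaatatcacg
miR171a/e/g: tGATTGAGccgcgccaatatc
miR171h: tGATTGAGccgcgtcaatatc
All 4 were 21 nt long and began with T. In the whole table, 51 of 71 sequences were 21 nt long and 52 of 71 began with T. miR171c/f, miR171a/e/g and miR171h shared 1 seed, and miR171b/d had another. Neither seed occurred in any of the sequences of other families. Counted from the 5′ end, miR171a/e/g and miR171c/f differed by C12T, miR171a/e/g and miR171h by C14T, and miR171c/f and miR171h by T12C and C14T. miR171b/d was the miR171c/f sequence moved by 3 nt towards the 3′ end. These 2 overlapped over 18 nt with 0 mismatches, while their seeds differed because of the shift. The longest run common to all 4 was ttgagccg, at bases 4 to 11 of the 3 sequences with the common seed and bases 1 to 8 of miR171b/d. A perfectly paired target would carry cggctcaa opposite this run. The authors let reads match with 1 mismatch, so a read can fit more than 1 member. An exact read of miR171a/e/g fits miR171c/f and miR171h as well, and some reads can fit both miR171c/f and miR171h. How such reads were divided between members is not given in the sources used here. No sequence of another family and of the same length lay within 1 mismatch of any member.

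The precursors, copied from the study's supplementary sequences in RNA letters, show where these sequences come from. One hairpin is given for each mature sequence, with that sequence in capitals.
MIR171c: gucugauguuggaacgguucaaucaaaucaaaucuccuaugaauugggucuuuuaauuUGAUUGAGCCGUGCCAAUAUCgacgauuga
MIR171b: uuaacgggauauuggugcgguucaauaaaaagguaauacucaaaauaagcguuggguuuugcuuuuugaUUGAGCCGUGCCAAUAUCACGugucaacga
MIR171a: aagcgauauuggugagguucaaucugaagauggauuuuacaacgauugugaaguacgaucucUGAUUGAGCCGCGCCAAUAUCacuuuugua
MIR171h: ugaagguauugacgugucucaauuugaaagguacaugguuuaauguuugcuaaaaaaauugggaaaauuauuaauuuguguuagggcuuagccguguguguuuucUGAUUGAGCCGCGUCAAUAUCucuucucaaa
The 8 hairpins were 88 to 136 nt long, and in all 8 the mature sequence lay in the 3′ arm. Folded with RNAfold, they had minimum free energies between -46.9 and -32.1 kcal/mol. In the predicted folds 18 to 20 of the 21 bases of the mature sequence were paired, each of them with the 5′ arm. The hairpin MIR171b held miR171b/d from base 70 and also the whole of miR171c/f from base 67. miR171c/f was therefore found without mismatch in 3 hairpins, MIR171b besides its own MIR171c and MIR171f, and miR171b/d in 2. In MIR171d, the other hairpin of miR171b/d, the best match of miR171c/f had 1 mismatch. With up to 1 mismatch miR171c/f and miR171a/e/g each fitted 7 of the 8 hairpins, miR171h 4 and miR171b/d 2. A value of miR171c/f thus cannot be assigned to one precursor. In the RefSeq annotation of the assembly USDA_Cmelo_AY_1.0, all 8 precursors had a named locus with the same hairpin length, spread over 6 chromosomes. MIR171D and MIR171H lay on 1 chromosome with 3 other gene starts between them. By position, MIR171C and MIR171H each lay within an annotated long non-coding RNA gene, LOC103502310 and LOC127143866. RefSeq names a ninth locus, MIR171I, whose mature sequence was not analysed here. It lay within the protein-coding gene LOC103494368. Strands were not compared, so these positions do not show that the genes share a transcript.

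**Figure D1:**
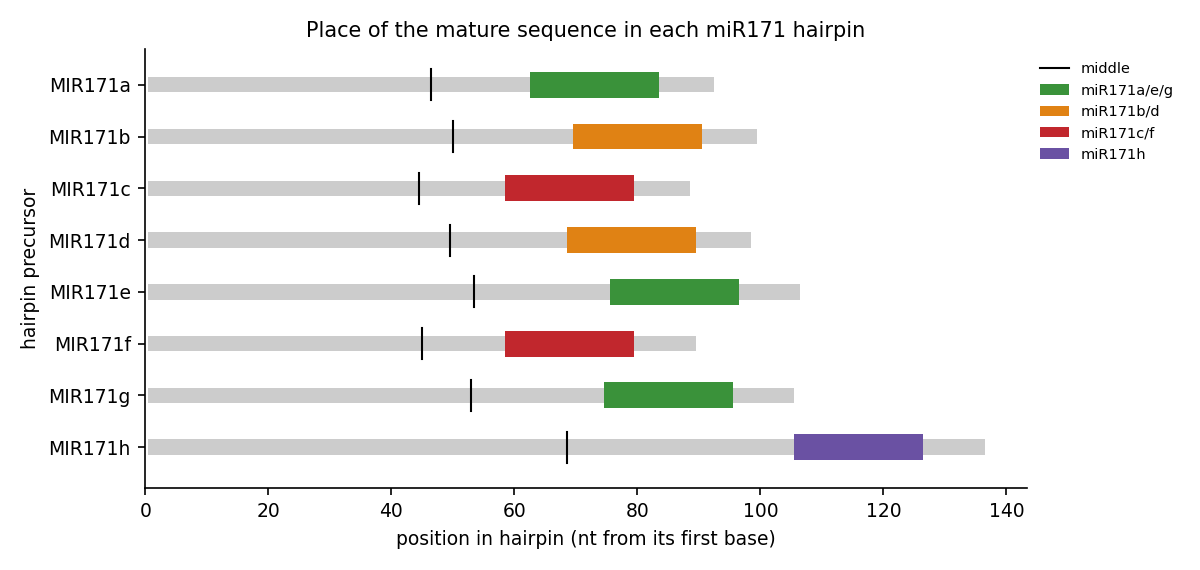
Place of the mature sequence (coloured) in each of the 8 miR171 hairpins (grey), with the position in nt from the first base of the hairpin on the horizontal axis and the middle of the hairpin marked in black. All 8 mature sequences lie beyond the middle, in the 3′ arm, and MIR171h is the longest hairpin at 136 nt.

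miR171 was among the least abundant families of the fruit flesh. Values are given in TPM, here the reads of a sequence over the library's total read count on a fixed scale, with no division by length. Low values came in equal steps, each the TPM of 1 read, and the reads and totals were taken from these steps. Such a total is the read count to which the TPM were scaled, not the raw reads of a library. Its share of the study's clean reads varied between libraries. Where depth or a shallow library is named below, this total is meant. The totals were 105076 to 985352 reads in the second batch and 233129 to 410960 reads in the first. Over all 8 libraries, 3148810 reads in all, the family had 43 reads. Its total averaged 14.9 ± 8.80 TPM (SD, n = 8), which placed it 27th of 30 families, and it ranked between 21 and 25 in single libraries. It made up 0.000492% to 0.00486% of the TPM listed in a library. The families next in order were miR390 with 23.3 ± 17.0 TPM and miR530 with 15.4 ± 19.0 TPM above it, and miR7130 with 11.7 ± 15.1 TPM and miR477 with 4.62 ± 7.24 TPM below it (SD, n = 8 each). miR390 guides the making of tasiRNAs that act on auxin response factors. The differences from miR390, miR530 and miR7130 were smaller than the spread of either family, and that from miR477 was larger than both SDs. These neighbours were not tested against miR171. The family had at least 1 read in all 8 libraries, as had miR390, while miR530 was read in 5, miR7130 in 6 and miR477 in 6.

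**Figure D2:**
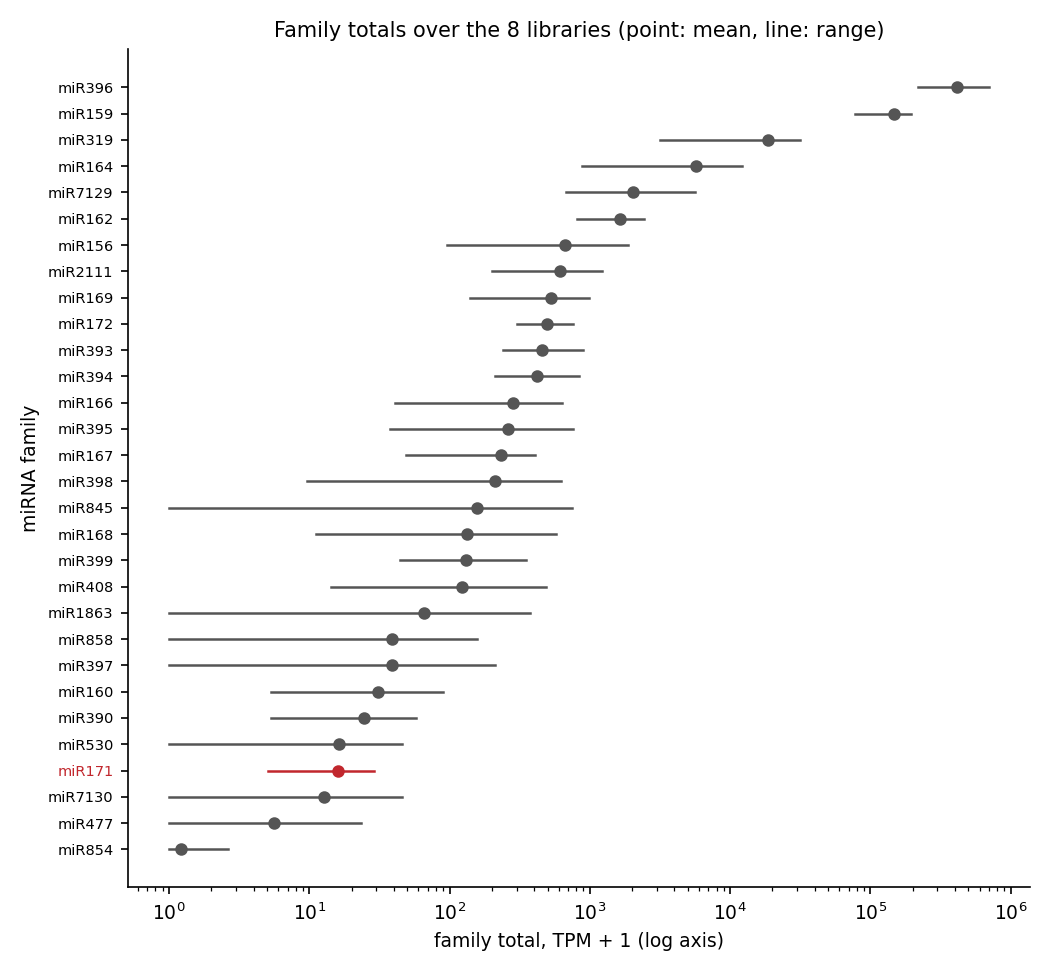
Totals of the 30 miRNA families over the 8 libraries, as TPM + 1 on a log axis, with the mean as a point and the range as a line. The miR171 family (red) has a mean of 14.9 TPM and a range of 4.06 to 27.8 TPM, and 26 families lie above it.

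The family was carried by miR171c/f and miR171b/d, with few reads of each. miR171c/f had 22 of the 43 reads (51.2%), miR171b/d 16 (37.2%), miR171a/e/g 4 (9.30%) and miR171h 1 (2.33%). By mean TPM, which weights the libraries equally, the shares were 42.0%, 39.6%, 10.4% and 7.97% in the same order, so that the first 2 were closer. By mean TPM miR171c/f ranked 55th and miR171b/d 57th of the 71 sequences, with miR171a/e/g at 65 and miR171h at 68. All 4 were among the 19 sequences with a mean under 10 TPM, and the median of the 71 sequences was 40.1 TPM. A total of 43 sequences had a read in all 8 libraries, and 0 of the 4 miR171 sequences did. A value at or under 3 reads was taken as the detection floor. This floor was 4.96, 3.04, 28.6 and 22.2 TPM at 10, 20, 30 and 40DAF in the second batch and 9.53, 8.33, 7.30 and 12.9 TPM in the first. It was thus highest in the second-batch libraries of 30 and 40DAF, whose totals were the smallest of the 8, with 105076 and 134912 reads. The study's clean reads do not follow this order, and by them the second-batch library of 40DAF was not among the smallest.

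miR171c/f, the most abundant member, had 6.62, 4.06, 0 and 0 TPM at 10, 20, 30 and 40DAF in the second batch (4, 4, 0 and 0 reads). In the first batch it had 9.53, 11.1, 14.6 and 4.29 TPM (3, 4, 6 and 1 reads). It was read in all 4 libraries of the first batch and in the early ones of the second, and 4 of the 8 values were over the floor. The highest value was that of 30DAF in the first batch, while no read was found at 30DAF in the second. The 0 reads at 30 and 40DAF of the second batch allow up to 35.1 and 27.3 TPM by exact 95% Poisson intervals, which is above every value measured for this sequence. Its stage means were 8.08 ± 2.06, 7.59 ± 4.99, 7.30 ± 10.3 and 2.15 ± 3.03 TPM (SD, n = 2 each) at 10, 20, 30 and 40DAF. Each step between neighbouring stages was no larger than the SD of at least one of the stages.

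miR171b/d, the member with a seed of its own, had 4.96, 0, 0 and 7.41 TPM at 10, 20, 30 and 40DAF in the second batch (3, 0, 0 and 1 reads). In the first batch it had 15.9, 16.7, 2.43 and 0 TPM (5, 6, 1 and 0 reads). The first-batch libraries of 10 and 20DAF were the only ones over the floor, and their values were the highest of the 8. The second-batch libraries of 30 and 40DAF cannot be placed below them, since their exact 95% Poisson intervals reach 35.1 and 41.3 TPM. The values of 10 and 20DAF in the first batch were 16.3 ± 0.552 TPM (SD, n = 2). Stage means were 10.4 ± 7.72, 8.33 ± 11.8, 1.22 ± 1.72 and 3.71 ± 5.24 TPM (SD, n = 2 each) at the successive stages. Here too no step between neighbouring stages exceeded the larger of their SDs.

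The other members were at or under the floor in all 8 libraries. miR171a/e/g had 3 reads (4.96 TPM) at 10DAF and 1 read (7.41 TPM) at 40DAF of the second batch and was listed at 0 in the other 6 libraries. miR171h, the product of the longest hairpin, had 1 read (9.52 TPM) at 30DAF of the second batch and was listed at 0 in the other 7. All reads of both came from the second batch. With reads pooled, miR171a/e/g had 4 reads in 1829785 in the second batch, or 2.19 TPM with an exact 95% Poisson interval of 0.596 to 5.60 TPM, against 0 reads in 1319025 in the first batch, with an interval of 0 to 2.80 TPM. These intervals overlap, and whether the pooled reads of the batches differ was not tested. Intervals and floors cover counting error only, because reads copied by PCR without molecular identifiers are not independent molecules. For these 2 members no fold change is given.

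**Figure D3:**
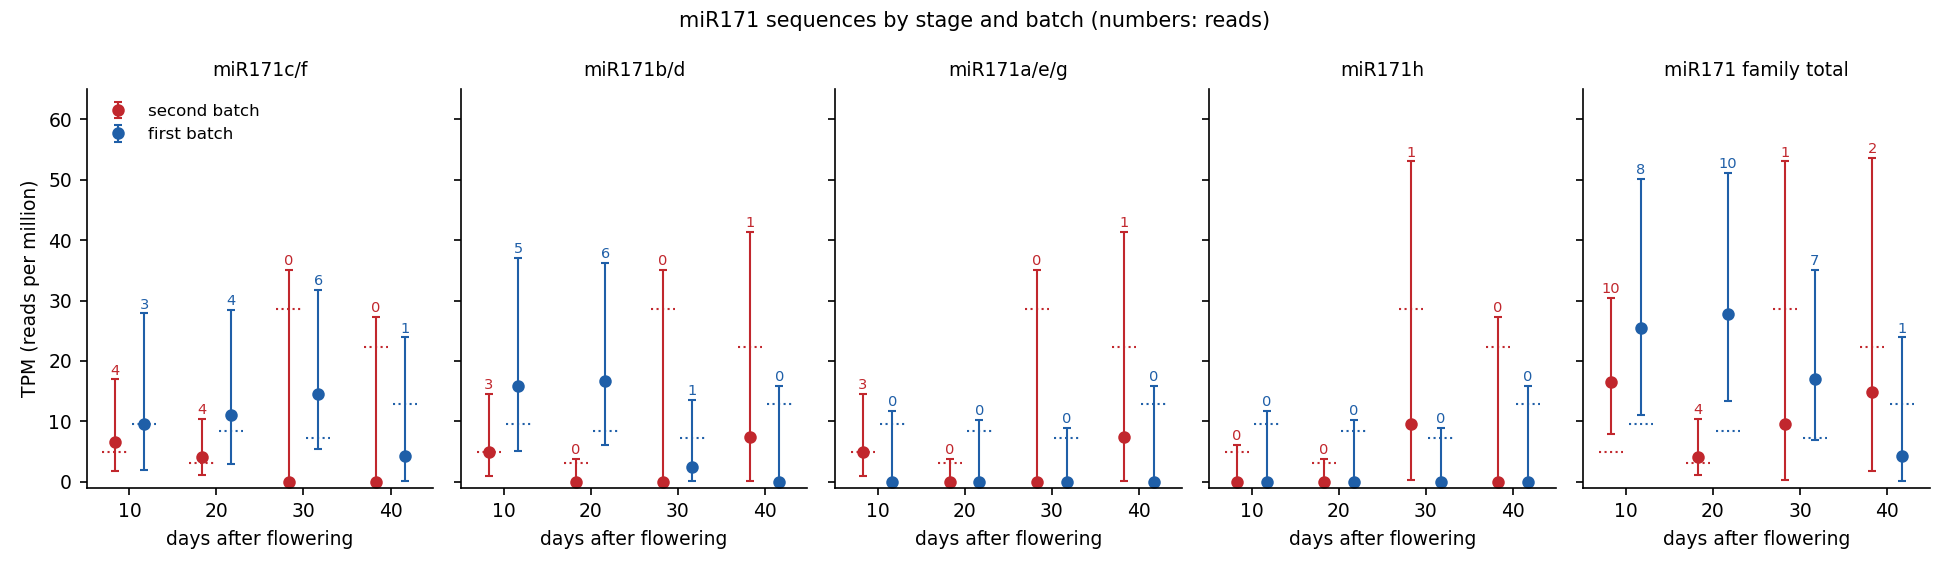
TPM of the 4 miR171 sequences and of their total (vertical axis) by days after flowering, with 1 point per library of the second batch (red) and the first batch (blue), exact 95% Poisson intervals as bars, the number of reads above each bar and the floor of 3 reads as a dotted line. The first-batch values of miR171b/d at 10 and 20DAF (15.9 and 16.7 TPM) are the highest measured for it, and the bars are widest at 30 and 40DAF of the second batch.

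Summed over the 4 sequences, the family had 16.5, 4.06, 9.52 and 14.8 TPM at 10, 20, 30 and 40DAF in the second batch (10, 4, 1 and 2 reads). In the first batch the totals were 25.4, 27.8, 17.0 and 4.29 TPM (8, 10, 7 and 1 reads). As measured, the batches had their highest and lowest totals at different stages. Both measured ripening totals were below both early totals in the first batch, whereas those of the second batch overlapped. The totals of 40DAF in the first batch and of 30 and 40DAF in the second were at or under the floor. Exact 95% Poisson intervals of the 2 second-batch ripening totals were 0.241 to 53.0 and 1.80 to 53.6 TPM. These totals therefore cannot be placed above or below the others. Stage means of the total were 20.97 ± 6.27, 15.9 ± 16.8, 13.3 ± 5.31 and 9.56 ± 7.45 TPM (SD, n = 2 each) from 10 to 40DAF. The order of these means followed the stages, but no step between neighbours was larger than the larger of their SDs. The ripening libraries (30 and 40DAF) averaged 11.4 ± 5.70 TPM, against 18.4 ± 10.7 TPM in the early libraries (10 and 20DAF; SD, n = 4 each), and the values overlapped. With reads pooled, so that deep libraries weigh more, the ripening stages had 11 reads in 884078, or 12.4 TPM (exact 95% Poisson interval 6.21 to 22.3), and the early stages 32 in 2264732, or 14.1 TPM (9.66 to 19.9). A sum over these members was given no test of its own.

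The first comparison asked whether a miR171 sequence changed between ripening and early fruit. None of the 4 passed an adjusted p of 0.05. In limma on log2(TPM + 5), with Benjamini-Hochberg adjustment over the 71 sequences, 5.63% of all sequences passed. miR171c/f had 14.6, 4.29, 0 and 0 TPM in the ripening libraries (mean 4.72 ± 6.89 TPM, SD, n = 4), against 4.06 to 11.1 TPM in the early ones (7.83 ± 3.13 TPM, SD, n = 4). On the log2(TPM + 5) scale it differed by -0.61 with an SE of 0.54 and a 95% interval of -1.91 to 0.69 (limma, adjusted p = 0.577). The pooled reads ran the other way, with 7.92 TPM in the ripening stages and 6.62 TPM in the early stages. Without the shallowest libraries, 30 and 40DAF of the second batch, the log2 fold change was 0.11. miR171b/d had 0 to 7.41 TPM in the ripening libraries (2.46 ± 3.49 TPM, SD, n = 4), against 0 to 16.7 TPM in the early ones (9.38 ± 8.22 TPM, SD, n = 4). It differed by -0.82 on that scale, with an SE of 0.60 and a 95% interval of -2.26 to 0.62 (limma, adjusted p = 0.550). Both intervals include lower as well as higher levels in ripening fruit. The pseudocount of 5 TPM is close to the members' own values and sets the size of these differences. With 1 TPM they were -1.47 for miR171c/f and -1.49 for miR171b/d, and with 20 TPM -0.20 and -0.35, still without a call.

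The ends of the series gave no miR171 call either. Between 40DAF and 10DAF, 7.04% of the 71 sequences passed the adjusted threshold in limma and 0 of 4 miR171 sequences did. miR171c/f had 4.29 and 0 TPM at 40DAF, against 9.53 and 6.62 TPM at 10DAF. The values of 40DAF lay below those of 10DAF, but all of them came from 0 to 4 reads. They differed by -0.93 on the log2 scale (SE 0.77; limma, adjusted p = 0.563), and by -1.38 to -0.48 with each library left out. miR171b/d had 0 and 7.41 TPM at 40DAF, against 15.9 and 4.96 TPM at 10DAF, and these overlapped, with a difference of -0.87 on the log2 scale (SE 0.85; limma, adjusted p = 0.638). With each library left out it was -1.53 to -0.22. Over all alternatives the difference was -1.96 to -0.35 for miR171c/f and -1.79 to -0.22 for miR171b/d. A limma test for any difference among the 4 stages called 0% of the 71 sequences on adjusted p values, with 14.1% at an unadjusted p under 0.05, and 2 sequences with the batch as a block. The miR171 sequences had adjusted p values of 0.736 to 0.888 in it. At an unadjusted p under 0.05 with a fold over 1.5, the form of threshold used in the study, 25.4% of all sequences passed between ripening and early stages (16.9% higher and 8.45% lower) and 22.5% between 40DAF and 10DAF (14.1% higher and 8.45% lower). Again 0 of 4 miR171 sequences passed.

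The batches were compared next, with the stage as a covariate. miR171c/f was lower in the second than in the first batch at each of the 4 stages, with means of 2.67 ± 3.26 TPM in the second batch and 9.88 ± 4.29 TPM in the first (SD, n = 4 each). The difference was -1.004 on the log2 scale (SE 0.39), with an unadjusted p of 0.0425 and an adjusted p of 0.232 in limma, so it did not pass the adjusted threshold. It was -0.60 when libraries were scaled by the median ratio, a scaling that moved the second batch up by 0.53 on the log2 scale relative to the first. Over all alternatives it was -2.02 to -0.40, at pseudocounts of 1 and 20 TPM. On adjusted p values 2.82% of the 71 sequences passed, and 18.3% did at an unadjusted p under 0.05 (14.1% lower), with miR171c/f as 1 of the 4 miR171 sequences among them. The ranges of the batches overlapped, and 2 of the 4 differences rest on the shallow ripening libraries of the second batch. miR171b/d averaged 3.09 ± 3.71 TPM in the second batch and 8.74 ± 8.75 TPM in the first (SD, n = 4 each), which differed by -0.61 on the log2 scale (SE 0.58; limma, adjusted p = 0.644). With each library left out this difference was -1.25 to -0.11.

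The last comparison set the step from early to ripening fruit in the second batch against the same step in the first. Here the stages of each kind in a batch stood as replicates, so the spread includes differences between ages. For miR171b/d the ripening libraries of the second batch had 0 and 7.41 TPM, against 4.96 and 0 TPM in its early ones. In the first batch the ripening libraries had 2.43 and 0 TPM, against 15.9 and 16.7 TPM in the early ones. Within the second batch the log2 fold change was 0.16 (adjusted p = 0.856 in limma) and within the first -1.80 (adjusted p = 0.0625 in limma). The difference between these changes was 1.96 on the log2 scale (SE 0.86), with an unadjusted p of 0.0507 and an adjusted p of 0.240 in limma. Over the alternatives it was 0.84 (pseudocount of 20 TPM) to 4.70 (voom weights, adjusted p = 0.0852), and 1.31 to 2.62 with each library left out. In that test 2.82% of all sequences passed the adjusted threshold and 19.7% passed at an unadjusted p under 0.05, in both cases with 0 of the 4 miR171 sequences. For miR171c/f the change was -1.04 in the second batch and -0.18 in the first, a difference of -0.86 (SE 0.76, adjusted p = 0.565 in limma). That difference was -1.39 to -0.32 with each library left out and -2.32 to -0.24 over all alternatives. The more negative value was thus that of the first batch for miR171b/d and of the second for miR171c/f, and neither difference passed the adjusted threshold.

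**Figure D4:**
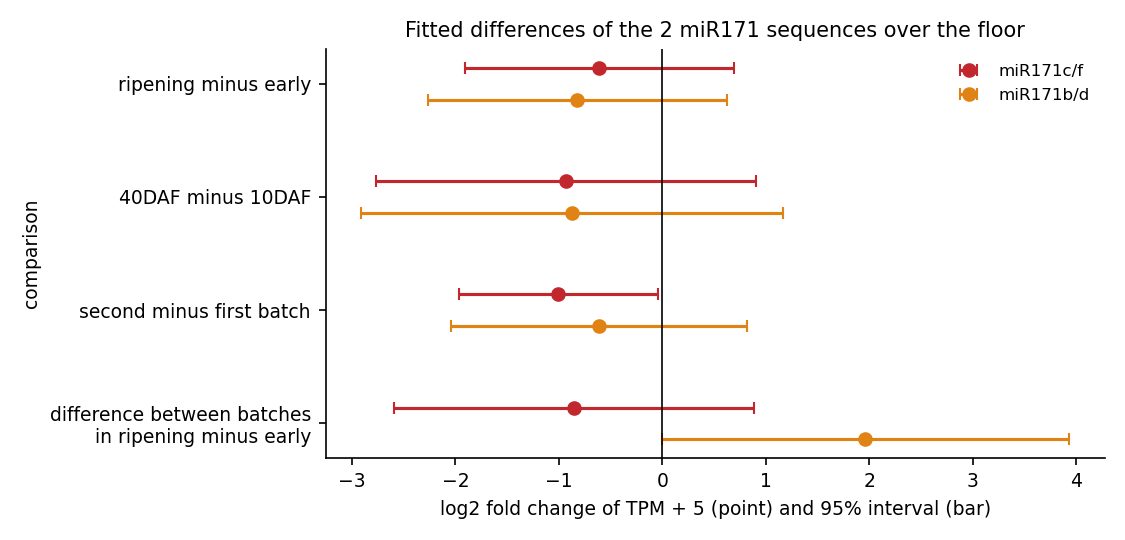
Fitted log2 fold changes of TPM + 5 (points) with 95% intervals (bars) for miR171c/f (red) and miR171b/d (orange) in 4 comparisons, where negative values are lower in the ripening stages, at 40DAF or in the second batch. All intervals include 0 except that of miR171c/f between the batches, which runs from -1.96 to -0.05 and did not pass the adjusted threshold.

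Other miRNAs that act on transcription factors were set beside miR171. The families miR156, miR159, miR160, miR164, miR166, miR167, miR169, miR172, miR319 and miR396 have SPL, MYB, ARF, NAC, HD-ZIP III, NF-YA, AP2, TCP or GRF factors as their conserved targets and held 40 sequences. Between ripening and early stages 3 of the 40 were higher and 1 was lower on adjusted p values in limma, where 4.23% of all 71 sequences were higher and 1.41% lower. The higher ones were 2 sequences of miR156 and 1 of miR164, and the lower one belonged to miR159. The median log2 fold change was 0.20 over the 40 sequences and 0.08 over all 71.

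The sequences whose pattern was most like that of miR171c/f were miR399c, miR167d/f and miR408, among sequences with a mean of at least 10 TPM. Their Pearson correlations with miR171c/f over the 8 libraries, on log2(TPM + 5), were 0.87, 0.80 and 0.77. miR171b/d, with its partly common sequence, had 0.41. These points share batches and depth, and miR171c/f rests on 0 to 6 reads in each library, so the values are a description of these libraries only. miR399c averaged 15.1 TPM, miR167d/f 169 TPM and miR408 122 TPM, all above the 6.28 TPM of miR171c/f. miR167 acts on auxin response factors, and miR399 and miR408 are known from phosphate and copper supply.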

How the data were processed

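Small RNA of 8 mesocarp libraries was analysed, 1 per stage and batch. The authors trimmed reads with FASTX-Toolkit 0.0.13, kept reads of small RNA length, removed matches to rRNA and tRNA of Rfam 12.0 and aligned the rest to miRBase 21 with Bowtie, with 1 mismatch allowed. The deposited values are TPM, computed by the authors as reads over the total read count on a fixed scale, without division by length. In the table, 1 line had an extra empty field, which was dropped, and identical sequences were merged. Reads were recovered from the step of 1 read, with 31 to 43 low values per library, all within 0.1 read of a whole number.

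The fits used limma 3.58.1 in R 4.3.3 on log2(TPM + 5), over all 71 sequences and with a mean-variance trend. The authors used edgeR, which was not run here. Whether batches pair the libraries was checked: second minus first batch differences correlated over 0.1 in 6 of 6 pairs of stages (mean r 0.498, 0.352 to 0.664), and same-numbered libraries share a year. The 2 libraries of a stage came from different plants and years, and in the stage comparisons p values measure the spread between them. The main stage fits left the batch out, so their SEs and intervals include the difference between batches. With the batch as a block, the SE of miR171c/f fell from 0.54 to 0.39 between ripening and early stages. Between 40DAF and 10DAF it fell from 0.77 to 0.55. Adjusted p values were then 0.390 and 0.339 in limma. For miR171b/d the blocked SEs were 0.58 and 0.82, with adjusted p values of 0.436 and 0.636 in limma. Between batches, p values measure how far the batch difference varied over the stages. Within a batch, and for the difference between batches in the early to ripening step, the 2 stages of each kind stood as replicates. The main fits were also run on simulated data with large added shifts and a single spread for all sequences. The simulation did not model read counts, so it cannot judge the fits for sequences with few reads. Hairpins were folded with RNAfold 2.7.2, and other steps used Python 3.11.15 with scipy 1.17.1.

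All miR171 sequences are named, with the 3 sequences most correlated with the most abundant member and the 2 families on either side in level. Members and lists were chosen with earlier results of these data known. The alternatives were other pseudocounts (1 and 20 TPM), sequences of at least 10 TPM on average, other scalings, a batch block, every name counted, no trend, fewer libraries and voom weights on recovered reads.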

Additional observations from a re-analysis of the deposited data

Results flagged for a closer look

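In 4 of 20 groups of 4 libraries (5 quantities in the ripening, early, second-batch and first-batch libraries), 1 library lay far from the other 3. Chance flags about 1 in 20 groups, but the groups overlap, and a lone value above 0 among zeros always stands apart. Groups that held only zeros could not be flagged. These were miR171a/e/g in the first batch and miR171h in the first-batch and the early libraries. miR171a/e/g had 7.41 TPM at 40DAF of the second batch among the ripening libraries and 4.96 TPM at 10DAF of the second batch among the early ones, which are 1 and 3 reads. miR171h had 9.52 TPM at 30DAF of the second batch, 1 read, which stood apart both among the ripening and among the second-batch libraries.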

How the results depend on the processing

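No alternative took miR171c/f or miR171b/d past the adjusted threshold in limma. Over 14 to 18 alternatives per comparison, adjusted p values ran from 0.0625 to 0.970, and the lowest was that of miR171b/d in the first batch alone. The direction of ripening against early stages changed in 2 alternatives chosen after seeing the data: for miR171b/d in the second batch alone (0.16) and for miR171c/f without the 2 shallowest libraries (0.11). With each library left out, that log2 fold change lay between -1.35 and -0.29 for miR171b/d and between -1.10 and -0.12 for miR171c/f. Without the second-batch 40DAF library, the ripening stages of that batch are 1 library, which holds the 1 read of miR171h. miR171h passed the adjusted threshold there for the difference between batches in the step from early to ripening stages. That call rests on 1 read, under the floor, in a group with no spread of its own, and cannot be read as a difference. The mean family total of 14.9 TPM was 30.2 TPM with every name counted, because names share sequences, and 13.1 to 16.5 TPM with each library left out.

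The counts over all 71 sequences moved more. The scalings moved values by 0.24 (all families but miR159 and miR396) and -0.39 (median ratio) on the log2 scale between ripening and early stages, and by -0.11 and 0.53 between the batches. For any difference among stages, 2 in place of 0 passed with each scaling, with no mean-variance trend and with the replicate block, and 0 to 4 with a library left out (4 without either 10DAF library). Between ripening and early stages (4), the count was 2 with a pseudocount of 1 TPM and when scaled on all families but miR159 and miR396, 0 in the second batch alone and without the 2 shallowest libraries, and 0 to 5 with a library left out (0 without either 20DAF library, either 30DAF library or the first-batch 40DAF library). Between 40DAF and 10DAF (5), it was 3 with that scaling and with voom weights, 0 with only the 4 libraries of these stages, and 0 to 6 with a library left out (0 without any one library of 20, 30 or 40DAF). Between the batches (2), it was 0 with a pseudocount of 20 TPM, 5 with the median ratio, and 0 with each library left out. For the difference between batches in that step (2), it was 5 with the filter on low values, which removes miR171, 0 with each scaling, 4 with every name counted, 1 with voom weights, and 1 to 8 with a library left out (4 without 30DAF and 8 without 40DAF of the second batch, 1 without any other). The batch block gave 6 sequences both for ripening against early stages and for 40DAF against 10DAF, and changed no miR171 call. The planned edgeR test on recovered reads was not run, and voom weights on the same reads were used in its place. Depth limits all values, since by exact 95% Poisson intervals 6 reads of miR171b/d (16.7 TPM) allowed 6.11 to 36.3 TPM and 1 read (2.43 TPM) allowed 0.0616 to 13.6 TPM.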
